A study of Mus musculus with 24 samples.

Results

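A set of 8 chemokine genes that draw monocytes, T cells and dendritic cells were followed in 4 mouse tumour cell lines after a guide RNA against B2m: Ccl2, Ccl7, Ccl9, Ccl20, Ccl5, Cxcl10, Cxcl12 and Cx3cl1. They were taken by gene symbol and make 8 of the 34866 genes listed in the 4 deposited tables. In each line, cells carrying a single guide RNA against B2m (sgB2m) were compared with cells carrying a non-targeting guide (sgNT), with 3 RNA-seq libraries for each of the 8 groups and 24 libraries in all. The lines are MC38 (from colon adenocarcinoma), LLC1 (from Lewis lung carcinoma), AKR (from esophageal carcinoma) and Hepa1-6 (from hepatocellular carcinoma). All were cultured alone in DMEM with serum, so the values are those of tumour cells in a dish. Clonal origin of the edited cells is not stated in the labels, nor is it stated that the 3 libraries of a group came from separate cultures, so p-values measure the spread between these libraries, which may be technical. Of the 8 genes, 7 had values in MC38, AKR and Hepa1-6 and all 8 had values in LLC1. Cxcl12 had values in LLC1 only, so it was not analysed here outside that line.

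Chemokines are small secreted proteins that guide leukocytes along a gradient through receptors on the leukocyte surface. CCL2 and CCL7 act on CCR2 and draw inflammatory monocytes, CCL9 is a rodent ligand of CCR1, CCL5 acts on CCR1 and CCR3 among others, and CCL20 is the chemokine ligand of CCR6 on dendritic cells and helper T cells. CXCL10 is induced by interferons and draws activated T cells through CXCR3, CXCL12 acts on CXCR4 and is scavenged by ACKR3, and CX3CL1 is made as a membrane-bound protein that ADAM proteases can release and that binds CX3CR1. Many inflammatory chemokine genes are known targets of NF-kB, and B2m codes for beta-2-microglobulin, without which MHC class I does not reach the cell surface.

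The libraries held 25.0 to 49.7 M counted reads. B2m, the gene targeted by the guide, fell in every line, with log2 fold changes of -1.78 ± 0.042 (MC38), -1.71 ± 0.029 (LLC1), -1.57 ± 0.054 (AKR) and -1.35 ± 0.040 (Hepa1-6; limma, highest adjusted p 2.25e-08). Mitochondrial transcripts took 3.30% to 3.38% of reads in MC38 sgB2m against 3.07% to 3.21% in MC38 sgNT, 4.02% to 4.04% in AKR sgB2m against 3.49% to 3.54% in AKR sgNT, and 4.10% to 4.32% in Hepa1-6 sgB2m against 4.97% to 5.18% in Hepa1-6 sgNT; the part of this difference in the results was not tested. Of 10 leukocyte markers, 6 had values in each line, Cd3e and Nkg7 were among those with no entry in any line, and Ptprc, the pan-leukocyte marker CD45, averaged at most 0.101 RPM in any group, where RPM are reads scaled so that a library sums to 1 M. The markers summed to 28.2 to 31.8 RPM in MC38 sgB2m against 22.8 to 24.8 in MC38 sgNT, 21.2 to 22.6 in LLC1 sgB2m against 21.4 to 26.9 in LLC1 sgNT, and 16.5 to 17.4 in Hepa1-6 sgB2m against 13.6 to 16.2 in Hepa1-6 sgNT. Cd68, a lysosomal protein of macrophages that other cells also make, averaged 29.1 RPM in MC38 sgB2m and 22.9 in MC38 sgNT, 4.81 in LLC1 sgB2m and 11.3 in LLC1 sgNT, and 10.2 in Hepa1-6 sgB2m and 4.25 in Hepa1-6 sgNT. Csf1r, another leukocyte marker, went the other way from Cd68 in Hepa1-6, at 5.24 RPM in sgB2m and 9.17 in sgNT. The integrin Itgax averaged 11.8 RPM in LLC1 sgB2m and 8.79 in LLC1 sgNT. The part of these genes' source in the results was not tested. The liver marker Afp was abundant in Hepa1-6, where the 5 hepatocyte markers summed to 11345 to 11405 RPM in sgB2m and 12168 to 12375 in sgNT. Of 5 lung markers, 4 had values in LLC1, led by Abca3 at 48.0 RPM, but Nkx2-1 had no entry. Abca3 was higher in AKR, at 64.0 RPM, and in Hepa1-6, at 118 RPM. Of 5 squamous markers, 4 had values in AKR, led by Krt13 at 10.9 RPM, but Krt5 had no entry. The squamous marker Krt14 averaged 52.0 RPM in MC38. Of 5 intestinal markers, 3 had values in MC38, led by Lgals4 at 2.98 RPM, while Cdx2 and Cdh17 had no entry. Cdh17 averaged 909 RPM in Hepa1-6. The lung, squamous and intestinal lists thus did not set apart the line named for that tissue.

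Of the 8 genes, 5 matched a promoter window in RefSeq (GRCm38.p6), each covering 250 bases before to 50 bases after the start in RefSeq. For Cx3cl1 that start lies downstream of the GENCODE start given with its values further on, so its window covers bases within the GENCODE gene. The windows of 4 genes are shown because they differ in the letters they hold and their genes moved differently: Ccl20 had the largest rise, Cxcl10 rose in Hepa1-6, Cxcl12 had the largest fall and Cx3cl1 rose in MC38. Capitals mark matches on either strand to a kappaB form (GGG and CC with 5 bases between them), an interferon-stimulated response element form (GAAA repeated after 2 bases) and an AP-1 form (TGANTCA). Sequences run 5′ to 3′ on the gene's strand.
Ccl20 (chr1:83116516-83116815, plus strand): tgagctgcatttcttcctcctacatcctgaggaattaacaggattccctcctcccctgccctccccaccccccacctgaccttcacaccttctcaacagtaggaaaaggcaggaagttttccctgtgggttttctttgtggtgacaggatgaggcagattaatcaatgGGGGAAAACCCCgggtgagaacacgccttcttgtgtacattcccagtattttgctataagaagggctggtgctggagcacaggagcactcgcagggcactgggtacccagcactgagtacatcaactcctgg
Cxcl10 (chr5:92348840-92349139, minus strand): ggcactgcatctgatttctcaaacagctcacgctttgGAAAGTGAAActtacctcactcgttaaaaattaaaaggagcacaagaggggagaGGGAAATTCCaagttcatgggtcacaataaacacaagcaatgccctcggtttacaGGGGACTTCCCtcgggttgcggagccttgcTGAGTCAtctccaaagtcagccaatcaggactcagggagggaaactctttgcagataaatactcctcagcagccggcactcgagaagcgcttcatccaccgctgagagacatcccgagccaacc
Cxcl12 (chr6:117168285-117168584, plus strand): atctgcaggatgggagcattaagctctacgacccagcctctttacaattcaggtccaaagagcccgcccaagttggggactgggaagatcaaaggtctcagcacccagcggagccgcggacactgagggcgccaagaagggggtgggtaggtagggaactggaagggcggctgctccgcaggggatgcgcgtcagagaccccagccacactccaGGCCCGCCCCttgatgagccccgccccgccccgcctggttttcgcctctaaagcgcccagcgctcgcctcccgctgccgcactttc
Cx3cl1 (chr8:94771930-94772229, plus strand): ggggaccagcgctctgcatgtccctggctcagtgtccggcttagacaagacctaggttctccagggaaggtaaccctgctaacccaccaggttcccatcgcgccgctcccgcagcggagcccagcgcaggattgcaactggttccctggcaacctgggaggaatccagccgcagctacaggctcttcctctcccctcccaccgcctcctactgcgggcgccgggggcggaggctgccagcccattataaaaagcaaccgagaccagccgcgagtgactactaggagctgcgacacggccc
In the Ccl20 window, 4 overlapping kappaB matches on both strands form 1 run from -82 to -71, counted from the start. The Cxcl10 window holds kappaB matches at -159 to -150 and from -104 to -94, an interferon form at -213 to -204 and an AP-1 form at -74 to -68. The Cxcl12 window holds 1 kappaB match, at -36 to -27, and the Cx3cl1 window holds no match to the 3 forms. The remaining window, of Ccl9, holds a kappaB match at -35 to -26 and an AP-1 match at -53 to -47. Of all 32851 mouse promoter windows of this length, 50.8% hold the kappaB form, 3.44% the interferon form and 7.81% the AP-1 form. These matches describe the letters and say nothing of binding.

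The 8 chemokines did not move in 1 direction across the lines. In Hepa1-6 sgB2m cells 5 genes rose, led by Ccl20 at 71.5-fold and Ccl2 at 13.2-fold (ratios of mean normalised counts), and in AKR 4 rose and 2 fell. In LLC1 4 fell, led by Cxcl12 at 11.5-fold lower, and Ccl9 rose, while in MC38 Ccl9 and Cx3cl1 rose and Ccl2 fell by a small amount. Tests covered genes whose log2 normalised count reached 3.5 in 3 or more libraries of a line, with calls at an adjusted p under 0.05 by limma over all genes of that line. On this rule 3 of 6 tested members were called in MC38, where 31.8% of all tested genes were called. In LLC1 5 of 7 were called against 42.4% of all genes, in AKR 6 of 6 against 42.9%, and in Hepa1-6 5 of 6 against 37.8%. By direction, the share of all tested genes that rose was 15.9% (MC38), 20.7% (LLC1), 21.0% (AKR) and 18.6% (Hepa1-6). The share that fell was 15.8% (MC38), 21.8% (LLC1), 21.9% (AKR) and 19.2% (Hepa1-6). The sgB2m and sgNT libraries did not overlap for 3 members in MC38, beside 45.0% of all tested genes, and for 5 in LLC1, beside 51.8%. The same held for 4 members in AKR, beside 52.5%, and for 5 in Hepa1-6, beside 47.6%. Members that pass the filter through 1 high group had to differ, so these counts describe and do not test the set. The median absolute log2 fold change of the tested members was 0.64 in MC38, beside 0.23 over all tested genes. It was 1.06 beside 0.23 in LLC1, 0.70 beside 0.26 in AKR and 1.20 beside 0.21 in Hepa1-6.

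**Figure D1:**
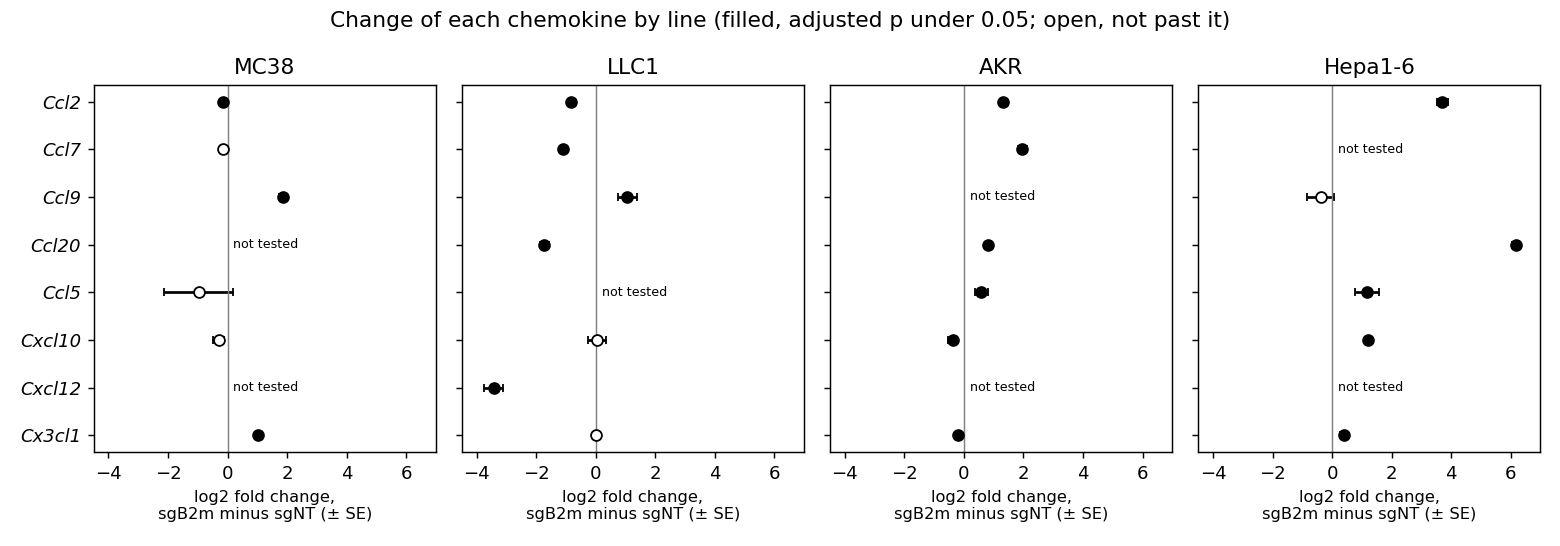
Log2 fold change of each chemokine, sgB2m minus sgNT, with its standard error, in 1 panel per line (3 libraries per group); filled points had an adjusted p under 0.05. Ccl2 lies left of 0 in MC38 and LLC1 and right of 0 in AKR and Hepa1-6, and the widest points are Ccl20 in Hepa1-6 at 6.16 and Cxcl12 in LLC1 at -3.42.

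Ccl2, the main CCR2 ligand of monocytes (ENSMUSG00000035385, chr11:82035571-82037453, plus strand, mm10), fell in LLC1 and rose in AKR and Hepa1-6. In Hepa1-6 its normalised counts were 452, 466 and 531 in the sgB2m libraries and 42.7, 29.5 and 37.2 in the sgNT libraries. The lowest sgB2m library was over 10 times the highest sgNT library, and the log2 fold change was 3.70 ± 0.18 (adjusted p = 3.49e-10, limma). In bulk RNA, fewer expressing cells and less RNA per cell cannot be told apart here or in the comparisons that follow. In AKR the counts were 12268, 10678 and 11050.2 in sgB2m against 4466, 4852 and 4463 in sgNT, with no overlap, a change of 1.30 ± 0.056 (adjusted p = 1.02e-07). In LLC1 the counts were 5237, 5477 and 5292 in sgB2m against 9639, 9395 and 9738 in sgNT. All sgB2m libraries lay below all sgNT libraries, and the change was -0.85 ± 0.032 (adjusted p = 7.43e-11). In MC38 the counts were 18387, 18869 and 18242 in sgB2m against 19338, 20296 and 21648 in sgNT. The groups were separate but close, at -0.14 ± 0.045 (adjusted p = 0.0381), and the call was lost without any 1 of the sgB2m libraries or of sgNT replicates 2 and 3 (adjusted p 0.0721 to 0.128), so that it depends on single libraries.

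Ccl7, another CCR2 ligand whose start lies 10.1 kb from that of Ccl2 (ENSMUSG00000035373, chr11:82045712-82047525, plus strand), had changes of the same sign as Ccl2 in each line where it was tested. In AKR its normalised counts were 246, 274 and 289 in sgB2m against 61.7, 71.0 and 72.2 in sgNT. The sgB2m libraries were all higher, by 1.97 ± 0.14 (adjusted p = 2.10e-06, limma). In LLC1 the counts were 877, 1019.5 and 922 in sgB2m against 2057, 1987 and 1959 in sgNT, all lower in sgB2m, by -1.09 ± 0.061 (adjusted p = 5.49e-09). In MC38 the counts were 5074, 5046 and 4521 in sgB2m against 4917, 5574 and 5669.9 in sgNT. These groups overlapped, and the difference of -0.14 ± 0.067 did not pass (adjusted p = 0.140), though it did without sgNT replicate 1 (adjusted p = 0.0124). In Hepa1-6 Ccl7 was under the filter, with 25, 9 and 14 reads in sgB2m and 4, 3 and 0 in sgNT. Fitted without the filter, this difference was 2.63 ± 0.73 (adjusted p = 0.0346). Per length, the ratio of the Ccl7 level to the Ccl2 level was 0.375 ± 0.021 in MC38 sgB2m and 0.375 ± 0.015 in MC38 sgNT (SD, n = 3 each). It was 0.250 ± 0.013 in LLC1 sgB2m and 0.297 ± 0.0094 in LLC1 sgNT, and 0.0340 ± 0.0048 in AKR sgB2m and 0.0211 ± 0.0017 in AKR sgNT. In these 3 lines Ccl7 was thus below Ccl2 in every group. The remaining genes of this stretch gave few values: of 7 coding genes within 250 kb of Ccl2, 3 were tested in MC38, and Ccl8, a further monocyte chemokine, had 0.13 ± 0.13 there (adjusted p = 0.468).

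**Figure D2:**
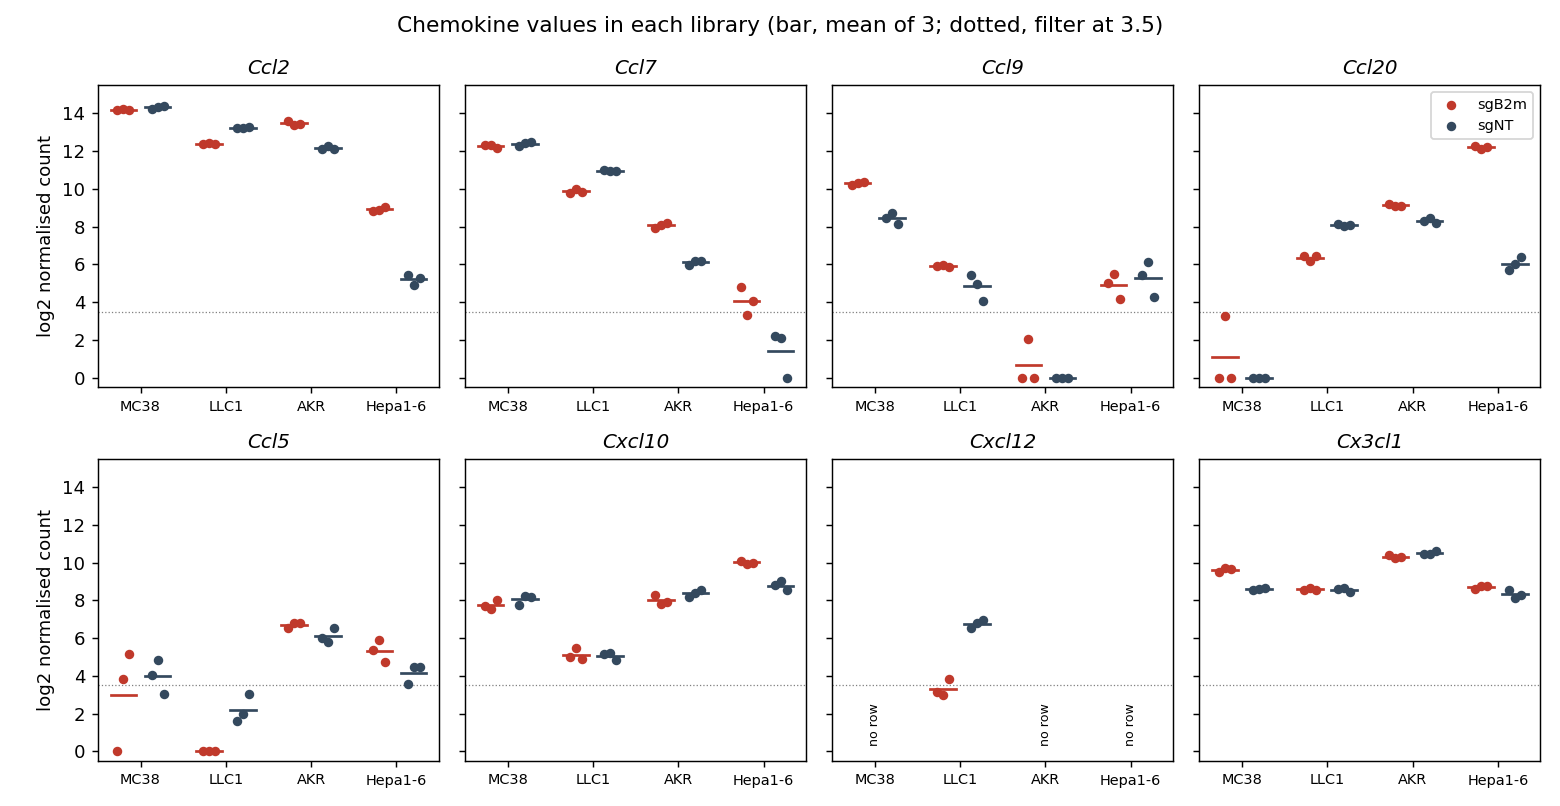
Log2 normalised count of each chemokine in each of the 24 libraries, with sgB2m left of sgNT for each line, a bar at the mean of 3 libraries and a dotted line at the filter of 3.5. Values can be compared within a line; the tables of the lines were normalised separately. Ccl20 stands at 0 in 5 of 6 MC38 libraries and the 2 guides are widest apart for it in Hepa1-6, while Cx3cl1 lies above the filter in all 24 libraries.

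Ccl20, the CCR6 ligand (ENSMUSG00000026166, chr1:83116766-83119167, plus strand), showed the largest change of the set. In Hepa1-6 its normalised counts were 4913, 4447 and 4722 in sgB2m and 51.8, 63.4 and 81.8 in sgNT. Every sgB2m library was far above every sgNT library, at 6.16 ± 0.13 (adjusted p = 1.71e-14, limma), and 2 of the 14910 tested genes of the line had a larger rise. In AKR the counts were 577, 549.9 and 544 in sgB2m against 309.6, 350.3 and 289 in sgNT, again without overlap, at 0.82 ± 0.094 (adjusted p = 5.18e-05). In LLC1 the counts were 85.2, 71.8 and 86.1 in sgB2m against 282, 259 and 266 in sgNT, and all sgB2m libraries were lower, by -1.72 ± 0.14 (adjusted p = 3.22e-07). In MC38 Ccl20 was under the filter, with 8 reads in 1 sgB2m library and 0 in the other 5 libraries. None of the 13 coding genes within 250 kb of Ccl20 was above the filter in any line.

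Ccl9, a CCR1 ligand (ENSMUSG00000019122, chr11:83572919-83578636, minus strand), rose in MC38 and LLC1. In MC38 its normalised counts were 1195, 1279.5 and 1319 in sgB2m against 347, 418 and 284 in sgNT. The groups were separate, at 1.87 ± 0.13 (adjusted p = 6.03e-06, limma). In LLC1 the counts were 58.5, 61.0 and 56.4 in sgB2m against 42.7, 30.6 and 15.8 in sgNT. The sgB2m libraries were higher and closer together than the sgNT libraries, at 1.06 ± 0.33 (adjusted p = 0.0176), and the call was lost without sgB2m replicate 2 (adjusted p = 0.0530) or sgNT replicate 3 (adjusted p = 0.0690). In Hepa1-6 the counts were 31.7, 44.6 and 16.9 in sgB2m against 41.8, 69.9 and 18.6 in sgNT, with overlap and no call (-0.39 ± 0.46, adjusted p = 0.559). In AKR Ccl9 had 3 reads in 1 sgB2m library and 0 in the other 5.

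Ccl5, a ligand of CCR1 and CCR3 that draws T cells and monocytes (ENSMUSG00000035042, chr11:83525778-83530518, minus strand), was weak in every line. In Hepa1-6 its normalised counts were 40.2, 58.8 and 26.0 in sgB2m against 10.9, 20.8 and 21.0 in sgNT. The groups did not overlap, and the rise was 1.18 ± 0.41 (adjusted p = 0.0338, limma). It was lost without sgB2m replicate 1 or 2 or sgNT replicate 1 (adjusted p 0.0751 to 0.157). In AKR the counts were 90.5, 109 and 109 in sgB2m against 62.8, 55.5 and 91.5 in sgNT. The highest sgNT library lay above the lowest sgB2m library, and the call at 0.58 ± 0.21 (adjusted p = 0.0483) was lost without sgB2m replicate 2 or 3 or sgNT replicate 1 or 2 (adjusted p 0.111 to 0.158). In MC38 Ccl5 had 0, 12 and 37 reads in sgB2m and 16, 22 and 10 in sgNT, with no call (-0.97 ± 1.14, adjusted p = 0.565). In LLC1 it was under the filter, with 0 reads in all sgB2m libraries and 2, 3 and 7 in sgNT. Fitted without the filter, this difference was -2.22 ± 0.48 (adjusted p = 0.0164, limma). With 0 reads in every sgB2m library that group has no spread, so this value describes and does not test.

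Cxcl10, the interferon-inducible CXCR3 ligand (ENSMUSG00000034855, chr5:92346638-92348889, minus strand), rose in Hepa1-6. Its normalised counts there were 1083, 988 and 1011 in sgB2m against 445, 516 and 370.0 in sgNT, without overlap, at 1.22 ± 0.11 (adjusted p = 2.04e-07, limma). In AKR the counts were 306, 226 and 239 in sgB2m against 286, 338 and 379 in sgNT. The groups overlapped, and the fall of -0.38 ± 0.14 lay at the threshold (adjusted p = 0.0499), with the call lost without sgB2m replicate 2 or 3 or sgNT replicate 2 or 3 (adjusted p 0.111 to 0.182). In MC38 the counts were 204, 186 and 259 in sgB2m against 216, 296 and 287 in sgNT, overlapping and not called (-0.30 ± 0.17, adjusted p = 0.225). In LLC1 they were 30.7, 43.3 and 28.7 in sgB2m against 34.5, 36.6 and 27.3 in sgNT, overlapping and not called (0.05 ± 0.29, 95% interval -0.58 to 0.68, adjusted p = 0.915). Art3, which overlaps Cxcl10 on the opposite strand, had 0 to 7 reads per group.

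Cxcl12, the CXCR4 ligand that stromal cells secrete (ENSMUSG00000061353, chr6:117168535-117181367, plus strand), was measured in LLC1 and fell. It had 8, 7 and 14 reads in sgB2m and 89, 110 and 118 reads in sgNT, and its normalised counts were 7.93, 6.89 and 13.4 against 90.4, 109 and 124. The highest sgB2m library was far below the lowest sgNT library, at -3.42 ± 0.32, and 17 of 15323 tested genes fell further. Cxcl12 averaged under the filter in sgB2m and passed it mainly through sgNT. The filter thus favoured a difference, so the change of Cxcl12 and its rank describe and do not test. Of the fibroblast markers, all 6 had values in LLC1 and 3 rose, with a sum of 194 to 205 RPM in sgB2m and 116 to 123 in sgNT; their part in the result was not tested.

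Cx3cl1, the membrane-bound ligand of CX3CR1 (ENSMUSG00000031778, chr8:94772009-94782427, plus strand), had its largest change in MC38, where it rose. Its normalised counts there were 734, 823 and 809.6 in sgB2m against 373, 388 and 406 in sgNT, without overlap, at 1.02 ± 0.091 (adjusted p = 3.00e-05, limma). The fibroblast markers also stood higher in MC38 sgB2m, where 5 of 6 had values, 4 rose and 1 fell, with a sum of 1181 to 1219 RPM in sgB2m against 741 to 789 in sgNT and no entry for Lum; their part in the result was not tested. In Hepa1-6 the counts were 385, 438 and 429 in sgB2m against 370.1, 275 and 310.1 in sgNT. The groups were just separate, at 0.40 ± 0.12 (adjusted p = 0.0183), and the call was lost without sgB2m replicate 2 or 3 or sgNT replicate 2 or 3 (adjusted p 0.0504 to 0.0866). In AKR the counts were 1328, 1220.15 and 1255 in sgB2m against 1419, 1386 and 1545 in sgNT, just separate, at -0.19 ± 0.063 (adjusted p = 0.0285). That call was lost without sgB2m replicate 2 or 3 or sgNT replicate 1 or 3 (adjusted p 0.0547 to 0.118). In LLC1 the counts were 379.7, 403 and 366 in sgB2m against 391, 402 and 344 in sgNT, overlapping and not called (0.02 ± 0.097, 95% interval -0.19 to 0.23, adjusted p = 0.902).

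The changes differed between lines for most of the chemokines that could be compared. For Ccl2, Cxcl10 and Cx3cl1, the 3 tested in all 4 lines, limma's F test for a line-dependent effect of the guide passed, as it did for 69.8% of all 12674 genes. For pairs of lines, 20 of 30 member differences passed, against 40.6% of all differences. The Ccl2 change in LLC1 was lower than that in Hepa1-6 by 4.55 ± 0.14 on the log2 scale (adjusted p = 7.90e-13, limma interaction) and lower than that in AKR by 2.15 ± 0.068 (adjusted p = 2.90e-12). All 6 pairs passed for Ccl2, all 3 for Ccl7 and all 3 for Ccl20, whose change in Hepa1-6 exceeded that in AKR by 5.34 ± 0.18 (adjusted p = 8.50e-12). The Cxcl10 change in Hepa1-6 differed from each of the other lines, by 1.52 ± 0.22 from MC38, 1.17 ± 0.26 from LLC1 and 1.60 ± 0.20 from AKR (highest adjusted p = 0.00181). The other 3 pairs did not pass for Cxcl10. The Cx3cl1 change in MC38 exceeded those in LLC1, AKR and Hepa1-6 by 1.0 ± 0.13, 1.21 ± 0.10 and 0.62 ± 0.16 (highest adjusted p = 0.00583). For Ccl9, MC38 exceeded Hepa1-6 by 2.25 ± 0.55 (adjusted p = 0.00420), while the difference of 0.80 ± 0.37 from LLC1 did not pass (adjusted p = 0.0967). No pair passed for Ccl5 (lowest adjusted p = 0.224).

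The order of the lines by level depended on the guide for Ccl2, Ccl20 and Cx3cl1. Levels are in RPM, each line from its own table. In sgB2m cells Ccl2 averaged 510.5 ± 11 in MC38, 373 ± 26 in AKR, 198 ± 4.6 in LLC1 and 17.2 ± 1.4 in Hepa1-6 (SD, n = 3 each). In sgNT cells MC38 stood first at 573 ± 33, then LLC1 at 348 ± 8.1, AKR at 146 ± 7.0 and Hepa1-6 at 1.28 ± 0.23. Libraries of neighbouring lines did not overlap in either order. Ccl20 ran in sgB2m from 167 ± 8.1 in Hepa1-6 over 18.3 ± 0.51 in AKR to 3.0 ± 0.31 in LLC1. In sgNT it averaged 10.1 ± 1.0 in AKR, 9.75 ± 0.47 in LLC1 and 2.30 ± 0.52 in Hepa1-6, and the AKR and LLC1 libraries overlapped. Cx3cl1 averaged 41.7 ± 1.7 in AKR sgB2m and 46.1 ± 2.4 in AKR sgNT, the highest line for either guide. It averaged 21.8 ± 1.3 in MC38, 14.9 ± 1.0 in Hepa1-6 and 14.2 ± 0.61 in LLC1 with sgB2m, against 10.9 ± 0.49 in MC38, 11.2 ± 1.7 in Hepa1-6 and 13.7 ± 1.1 in LLC1 with sgNT. MC38 libraries lay above LLC1 libraries in sgB2m and below them in sgNT, without overlap. Hepa1-6 and LLC1 overlapped in both guides, and Hepa1-6 and MC38 overlapped in sgNT. Cxcl10 was highest in Hepa1-6, at 36.6 ± 1.8 in sgB2m and 15.6 ± 2.6 in sgNT, and lowest in LLC1, at 1.27 ± 0.29 in sgB2m and 1.19 ± 0.17 in sgNT.

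Set per length, Ccl2 made up most of the chemokine RNA in 3 lines and little of it in Hepa1-6. The summed level of the set, in reads per kb per 1 M reads, was 637 ± 18 in MC38 sgB2m against 702 ± 44 in MC38 sgNT (SD, n = 3 each) and 224 ± 7.4 in LLC1 sgB2m against 408 ± 8.0 in LLC1 sgNT. It was 369.6 ± 23 in AKR sgB2m against 157 ± 5.9 in AKR sgNT, and 155 ± 5.9 in Hepa1-6 sgB2m against 13.8 ± 1.1 in Hepa1-6 sgNT. Ccl2 took 70.4% ± 0.82 of this sum in MC38 sgB2m and 71.7% ± 0.85 in MC38 sgNT. It took 77.5% ± 0.77 in LLC1 sgB2m and 74.9% ± 0.63 in LLC1 sgNT, and 88.6% ± 0.64 in AKR sgB2m and 81.8% ± 1.1 in AKR sgNT. In Hepa1-6, Ccl20 took 75.7% ± 0.80 in sgB2m and 11.9% ± 3.5 in sgNT. There Cxcl10 took 10.4% ± 0.23 in sgB2m and 50.05% ± 4.7 in sgNT, and Cx3cl1 took 2.44% ± 0.25 in sgB2m and 20.8% ± 3.6 in sgNT, although the RNA of both genes was higher in sgB2m.

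**Figure D3:**
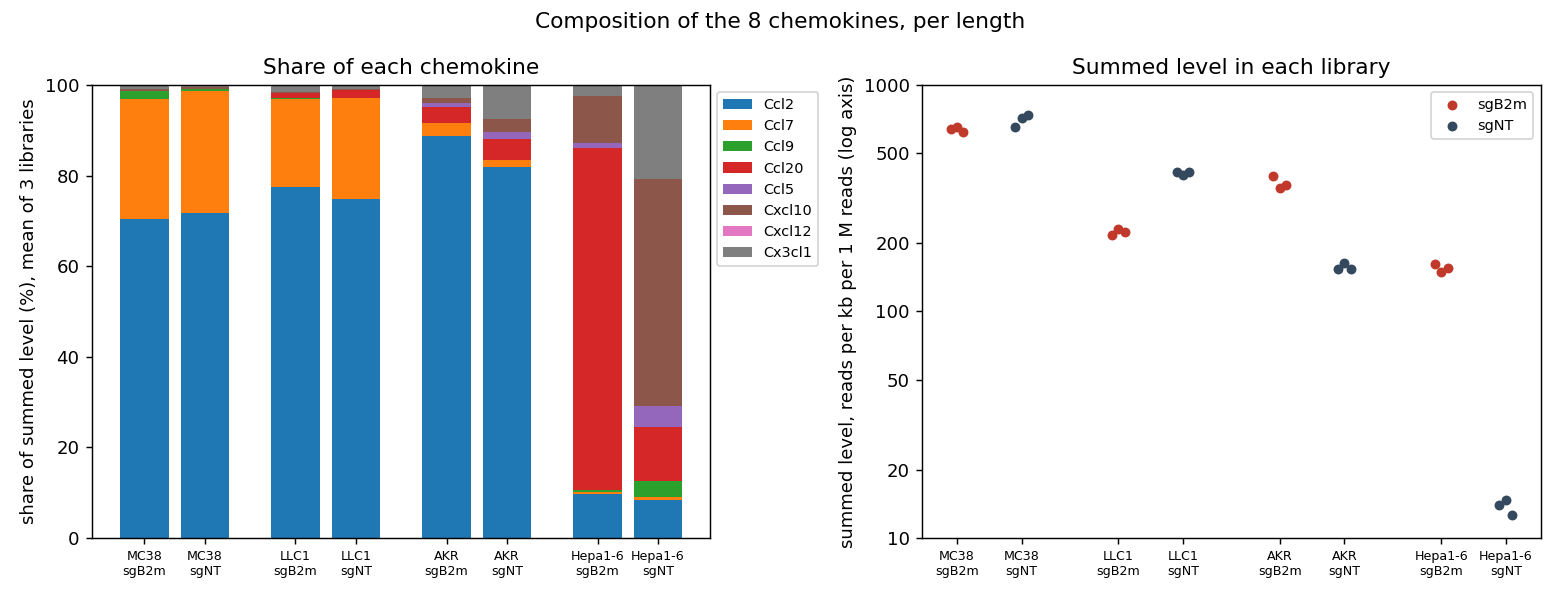
Left, the share of each chemokine in the summed level of the set (reads per kb of exon per 1 M reads), as the mean of 3 libraries; right, the summed level in each library on a log axis; sgB2m stands left of sgNT for each line. Ccl20 fills 75.7% of the Hepa1-6 sgB2m bar and 11.9% of the sgNT bar. The sums of sgB2m and sgNT do not overlap in any line, but in MC38 they nearly touch. There the highest sgB2m sum is 653.4 and the lowest sgNT sum is 654.5.

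Few receptors of these chemokines were measured above the filter in the tumour cells, and the one with the highest level was Ackr3 in MC38. Of 12 receptor genes, MC38, LLC1 and AKR each had 2 above the filter and Hepa1-6 had none. In AKR, Ccr1, the receptor of CCL9 and CCL5, changed by 2.34 ± 0.42 on the log2 scale. It had 41.3 ± 5.5 normalised counts in sgB2m and 7.86 ± 3.6 in sgNT (SD, n = 3). Cxcr3, the receptor of CXCL10, rose there by 1.20 ± 0.24, with 64.0 ± 5.0 in sgB2m and 27.5 ± 4.6 in sgNT (adjusted p = 0.00205, limma). In MC38 Ackr3, the scavenging receptor of CXCL12, rose by 1.15 ± 0.059, with 5942 ± 128 in sgB2m and 2676 ± 201 in sgNT (adjusted p = 7.36e-07). In LLC1 Cx3cr1, the receptor of CX3CL1, changed by -1.77 ± 0.38, with 9.15 ± 2.2 in sgB2m and 33.5 ± 7.0 in sgNT. Ccr1 in AKR and Cx3cr1 in LLC1 averaged under the filter in 1 group and passed it mainly through the other. The filter thus favoured a difference, and the changes of these genes describe and do not test. Of the leukocyte markers, 6 of 10 had values in AKR and 1 rose, with a sum of 227 to 237 RPM in sgB2m against 78.0 to 83.2 in sgNT. Nearly all of it was Cd68, at 230.2 in sgB2m and 80.6 in sgNT, while Ptprc, Itgam, Lyz2 and Itgax were under 1 RPM and Adgre1 had no entry; the part of Cd68-expressing cells in the AKR results was not tested.

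Among other chemokines, Cxcl1, Cxcl2 and Cxcl5, which draw neutrophils, rose in Hepa1-6 and fell in LLC1. Of 30 other chemokine genes, 5 rose and 2 fell among 9 tested in Hepa1-6, beside 18.6% and 19.2% of all tested genes. The rises were led by Cxcl1 at 3.47 ± 0.085, Cxcl5 at 3.01 ± 0.059 and Cxcl2 at 2.99 ± 0.12 (highest adjusted p 4.81e-11, limma). The 2 that fell there, Cxcl15 at -1.34 ± 0.052 and Ppbp at -1.10 ± 0.24, are also CXC chemokines that act on neutrophils and were named after their values were seen (highest adjusted p 0.00187, limma). In LLC1 none rose and 4 fell among 10 tested, beside 20.7% and 21.8% of all tested genes. The falls were led by Cxcl2 at -1.51 ± 0.17, Cxcl16 at -1.06 ± 0.22 and Cxcl1 at -0.58 ± 0.082, and Cxcl5 was at -0.55 ± 0.035. In AKR, Cxcl1 rose by 1.05 ± 0.046 and Cxcl16 changed by -1.99 ± 0.45 among 9 tested. Of all genes tested there, 21.0% rose and 21.9% fell. Cxcl16 passed the filter in AKR through the sgNT group only. In MC38 3 rose and 1 fell among 10 tested, beside 15.9% and 15.8% of all tested genes. Cxcl5 had 222 ± 10 normalised counts in MC38 sgB2m and 1.92 ± 3.3 in MC38 sgNT, and passed the filter through sgB2m only. The changes in MC38 were -0.69 ± 0.12 for Cxcl16 and 0.52 ± 0.072 for Cxcl1. Cxcl16, the chemokine in the study's title and the ligand of CXCR6, rose in Hepa1-6 by 1.61 ± 0.075.

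Of 15 genes of the NF-kB pathway, all 11 tested in Hepa1-6 rose, led by Tnfaip3, a feedback inhibitor, at 2.55 ± 0.083, Nfkbiz at 1.98 ± 0.079 and the subunit Relb at 1.93 ± 0.12, where 18.6% of all tested genes of the line rose. Their median log2 fold change was 1.24, beside -0.01 over all genes. In AKR 5 of 13 rose and 1 fell, led by the inhibitor Nfkbia at 0.84 ± 0.061, where 21.0% of all genes rose. In MC38 4 of 13 rose and 1 fell, led by the cytokine Il6 at 2.35 ± 0.50, where 15.9% of all genes rose. In LLC1 1 of 12 rose and 5 fell, led by Il6 at -1.61 ± 0.45, where 21.8% of all genes fell. Il6 had 8.74 ± 4.3 normalised counts in LLC1 sgB2m and 27.7 ± 7.6 in LLC1 sgNT (SD, n = 3). It averaged under the filter in sgB2m and passed it mainly through sgNT. The filter thus favoured a difference, so the change of Il6 in LLC1 describes and does not test. The list was chosen with results of these data known, so its counts are no independent evidence.

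Of the interferon genes, some rose and none fell in MC38 and LLC1, while rises and falls were close in number in AKR and Hepa1-6. In MC38 9 of 15 rose and none fell, beside 15.9% of all genes that rose, led by Ifit1 at 1.71 ± 0.44, Gbp2 at 1.52 ± 0.23 and Ifit3 at 1.52 ± 0.14. In LLC1 6 of 14 rose and none fell, beside 20.7% of all that rose, led by Ifit3 at 2.11 ± 0.24, Ifit1 at 1.73 ± 0.47 and Stat2 at 1.25 ± 0.082. In Hepa1-6 6 rose and 5 fell among 15, beside 18.6% and 19.2% of all genes, with Gbp2 at 0.80 ± 0.19, the receptor chain Ifngr2 at 0.60 ± 0.086 and Isg15 at -0.57 ± 0.092. In AKR 3 rose and 2 fell among 15, beside 21.0% and 21.9% of all genes. Cxcl10, itself interferon-inducible, was not called in MC38 or LLC1. Of 10 genes for proteases and inhibitors that act on chemokines, Adam10, which can release CX3CL1 from the membrane, rose in LLC1 (0.31 ± 0.032) and fell in AKR (-0.17 ± 0.046) and Hepa1-6 (-0.16 ± 0.039). The inhibitor Timp3 had 0.957 ± 1.7 normalised counts in LLC1 sgB2m and 30.2 ± 5.4 in LLC1 sgNT. Timp3 passed the filter there through the sgNT group only, so it had to differ. It changed by -0.58 ± 0.056 in MC38 and by 0.44 ± 0.044 in Hepa1-6. In all, this list had 2 rises and 1 fall among 8 tested in MC38, where 31.8% of all tested genes were called. LLC1 had 1 rise and 2 falls among 6, beside 42.4% of its tested genes called. AKR had 2 rises and 1 fall among 6, beside 42.9%. Hepa1-6 had 1 of each among 5, beside 37.8%.

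**Figure D4:**
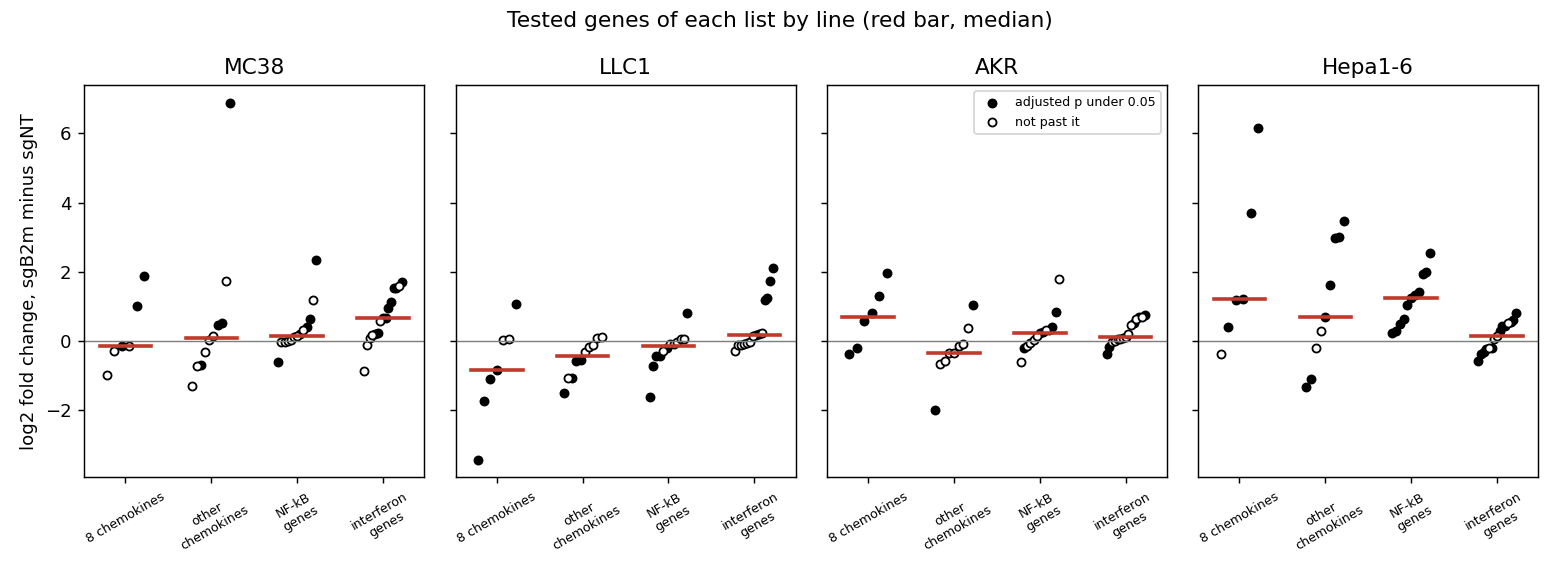
Log2 fold change, sgB2m minus sgNT, of the tested genes of the set and of 3 lists of related genes, in 1 panel per line; filled points had an adjusted p under 0.05 and red bars are medians. In Hepa1-6 all 11 NF-kB genes lie above 0 with a median of 1.24, while in LLC1 the median of the 7 tested chemokines is -0.85.

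Coding genes close to the chemokines moved with them in some lines and against them in others. Around Cxcl10 in AKR, 5 of 6 tested genes within 250 kb fell and 1 rose, beside 21.9% of all tested genes that fell. The fall of Cxcl10 itself in AKR lay at the threshold, with overlapping groups, and depended on single libraries. In Hepa1-6, where Cxcl10 rose, 2 of 5 rose and none fell, beside 18.6% of all that rose. In LLC1, where Cxcl10 was not called, 2 of 6 rose and 2 fell, beside 20.7% and 21.8% of all tested genes. In MC38, where it was not called either, 2 of 6 rose and none fell, beside 15.9% and 15.8%. Around Ccl5 4 of 6 fell in AKR, beside 21.9% of all that fell, among them Taf15 at -0.58 ± 0.038. Ccl5 itself had a positive change in AKR. In Hepa1-6, where Ccl5 rose, none of its 7 tested neighbours was called, beside 37.8% of all tested genes. In MC38, where Ccl5 was not called, 1 of 7 rose and none fell, beside 15.9% and 15.8%. In LLC1, where Ccl5 was under the filter, 2 of 8 rose and 1 fell, beside 20.7% and 21.8%. Around Cx3cl1 in MC38, where it rose, 3 of 12 fell and none rose, beside 15.8% of all that fell, with Adgrg1 at -1.13 ± 0.098. In Hepa1-6, where Cx3cl1 rose, 3 of 10 rose and 2 fell, beside 18.6% and 19.2%. In AKR, where Cx3cl1 fell, 5 of 12 rose and 1 fell, beside 21.0% and 21.9%. The Cx3cl1 calls in Hepa1-6 and AKR depended on single libraries. In LLC1, where Cx3cl1 was not called, 3 of 10 rose and 2 fell, beside 20.7% and 21.8%.

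Over the 24 libraries, each centred on the mean of its line, Cxcl1 was the gene whose values were most like those of Ccl2, with a Pearson r of 0.976 among 10864 genes compared, followed by Spp1 at 0.972 and Ier3 at 0.970. The changes of Cxcl1 in MC38, LLC1, AKR and Hepa1-6 were 0.52, -0.58, 1.05 and 3.47 on the log2 scale. Closest to Cx3cl1 were C1ra at 0.928, Tmem176b at 0.928 and Cxcl5 at 0.925. Cxcl10 had less close matches, with Hnrnpa1 at 0.874, Src at 0.841 and Cldn12 at 0.841. These points share their line and guide groups, so r describes the pattern of the group differences and carries no test.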

How the data were processed

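RNA was measured by strand-specific sequencing of total RNA in 24 libraries of 4 mouse tumour lines, grouped by the labels into sgB2m and sgNT with 3 libraries per line and guide. The authors worked with FastQC 0.11.5, STAR, DESeq2 and build mm10, per the submitters' processing notes; the gene counter, its annotation and its strand setting are not given in the sources used here. The authors deposited log2 normalised counts, 1 table per line. The values, with a pseudocount of 1 removed, came out as whole reads within 0.05 for 100% of values in each library, and reads recovered this way gave the depths and the levels scaled to library totals. Counting error limits genes of few reads. A gene with no reads in any library of a line has no entry in that table.

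Each line was tested with limma 3.58.1 in R 4.3.3, with a trend and Benjamini-Hochberg adjustment over all genes at log2 3.5 or more in at least 3 of 6 libraries. Differences between lines were tested as interactions, by an F test over 4 lines and for 6 pairs of lines. Fold changes are on the log2(count + 1) scale, which understates low genes. Levels per length used the exon length of GENCODE vM21 genes (mm10). The members, gene lists, markers and alternatives were chosen with earlier results of these data known. Named are the 8 chemokines, B2m, Cxcl16, of each list up to 3 called genes with the largest change per line, coding genes within 250 kb, and the 3 genes most like each chemokine tested in all lines. Alternatives changed the filter, pseudocount, scaling, trend and replicate block, and left out each library.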

Additional observations from a re-analysis of the deposited data

Results flagged for a closer look

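The change after the B2m guide differed between lines by a test of the difference itself for 6 of the 7 chemokines tested in more than 1 line; Cxcl12 could not be compared. The F test passed for 69.8% of all genes, and 40.6% of all differences between pairs of lines passed, so such calls were common. Over all 4 lines, the F test of the interaction in limma gave an adjusted p of 1.94e-18 for Ccl2, 1.89e-07 for Cx3cl1 and 2.34e-05 for Cxcl10. Ccl2 had changes of -0.14, -0.85, 1.30 and 3.70 on the log2 scale in MC38, LLC1, AKR and Hepa1-6, and Cx3cl1 had 1.02, 0.02, -0.19 and 0.40. Cxcl10 had -0.30, 0.05, -0.38 and 1.22 in the same order.

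Ccl7 was compared between 3 lines. Its change differed between MC38 and LLC1 (difference 0.95 ± 0.095, adjusted p = 1.67e-06), between MC38 and AKR (difference -2.11 ± 0.13, adjusted p = 1.61e-08) and between LLC1 and AKR (difference -3.06 ± 0.13, adjusted p = 1.09e-10). Ccl20 differed between LLC1 and AKR (difference -2.54 ± 0.16, adjusted p = 7.28e-09), between LLC1 and Hepa1-6 (difference -7.88 ± 0.20, adjusted p = 8.14e-14) and between AKR and Hepa1-6 (difference -5.34 ± 0.18, adjusted p = 8.50e-12). For both genes, all 3 sgB2m libraries lay below the 3 sgNT libraries in LLC1 and above them in AKR. Ccl9 differed between MC38 and Hepa1-6 (difference 2.25 ± 0.55, adjusted p = 0.00420).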

How the results depend on the processing

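No chemokine change or difference between lines that was called reversed under the alternatives run. Of 348 alternative values of single chemokines, 301 kept their side of the threshold, 46 lost it and 1 gained it; of 957 alternative differences between lines, 949 kept their side and 8 gained a call. The number of chemokines called was 2 to 4 in MC38, 4 or 5 in LLC1, 3 to 6 in AKR and 3 to 5 in Hepa1-6 over all alternatives. In AKR it was 3 with no filter and 3 with no trend, and in Hepa1-6 3 with no trend. Leaving out 1 library gave 2 to 4 in MC38, 3 to 6 in AKR and 3 to 4 in Hepa1-6, with 3 in AKR without sgB2m replicate 2 or 3 and 3 in Hepa1-6 without sgB2m replicate 2. The F test called 5 with no filter, because 7 chemokines were then tested. Genes called ranged over 3651 to 6082 in MC38, 5311 to 6575 in LLC1, 5624 to 6899 in AKR and 4146 to 5699 in Hepa1-6. The calls lost were Ccl2 in MC38 in 8 of 14 alternatives (adjusted p 0.00187 to 0.160), Ccl9 in LLC1 in 4 (0.00518 to 0.0861), Ccl5 in AKR in 8 (0.0130 to 0.158), Cxcl10 in AKR in 8 (0.00682 to 0.182), Cx3cl1 in AKR in 7 (0.00950 to 0.118), Ccl5 in Hepa1-6 in 5 of 13 (0.0159 to 0.157) and Cx3cl1 in Hepa1-6 in 6 (0.00551 to 0.0866), by limma; the cause was not tested.

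Same-numbered libraries did not deviate together (r -0.028 to 0.051), so the numbers were not taken as pairs. With the replicate block, Cxcl10 in AKR lost its call (adjusted p = 0.0692, limma), which left 5 chemokines called there, and Ccl9 gained a difference between LLC1 and Hepa1-6 (adjusted p = 0.0227; 0.0153 to 0.215). Of 12 sgB2m libraries, 7 correlated best with their own number. Low reads limit Ccl5 in each line, Ccl7 and Ccl9 in Hepa1-6, and Cxcl12.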

Other observations

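A few related genes under the filter had reads in 1 group only; they were chosen after their values were seen and were not tested. In Hepa1-6, Tnf, a cytokine of the NF-kB list, had 39 reads over the 3 sgB2m libraries and 0 over the 3 sgNT libraries. The other cytokines of that list with values there were also under the filter and went the other way. Il1a had reads in both groups, 4 in sgB2m and 36 in sgNT, and Il6 had 0 in sgB2m and 4 in sgNT. In MC38, Cxcl9, a CXCR3 ligand like Cxcl10, had 0 reads in sgB2m and 36 in sgNT. In LLC1, Cxcr4, the receptor of CXCL12, had 15 reads in sgB2m and 0 in sgNT.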
